A study of Mus musculus with 6 samples.

Results

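The genes described here are 10 mouse genes of neuronal cytoskeleton and differentiation: Tubb3, Dcx, Map2, Rbfox3, Stmn2, Gap43, Elavl3, Elavl4, Nefl and Nefm. They were chosen by name, not by their values, and are 10 of 17551 genes in a table of RNA-seq read counts. Map2 is listed there under its older symbol Mtap2. The table covers 6 libraries of mouse neurospheres, C57BL/6 in background and cultured with N2, B27, EGF and FGF. By their genotype labels 3 are ACVR1 G328V (replicates 1, 2 and 3) and 3 are ACVR1 WT (replicates 1, 3 and 70A), described as biological replicates. ACVR1 is a kinase receptor of the BMP pathway, and in G328V a valine replaces a glycine of that receptor. Sample titles begin with the letters NPAC for G328V and NPC for WT. The sources used here do not state what those letters mean, which animals gave the cultures or how the receptor was introduced. The question of the comparison was whether expression differs with the receptor genotype.

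A newly born neuron builds a cytoskeleton unlike that of its progenitor. Its microtubules contain the neuron-enriched beta-tubulin Tubb3 and are bundled by Dcx in migrating cells and by Map2 in dendrites. Stmn2 and Gap43 act in the growing axon tip, Elavl3, Elavl4 and Rbfox3 bind RNA and shape neuronal mRNA stability and splicing, and Nefl and Nefm are subunits of the neurofilaments that fill mature axons. Neurospheres grown with EGF and FGF are kept as dividing stem and progenitor cells, in which these genes are usually low and differentiated neurons few.

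Library totals ran from 115953495 to 191115532 counts. If counts are separate reads, 3 counts are taken as the limit that a count of 0 allows. They correspond to 0.0163 to 0.0249 CPM, the count per 1e6 counts of a library. CPM values here use library sizes scaled by TMM, a normalization for library composition. Acvr1 spanned 244 to 650 CPM across G328V against 42.4 to 100.0 CPM across WT, with no overlap (edgeR adjusted p = 0.997). Gene counts do not tell the mutant from the normal receptor. Xist, the RNA of the inactive X chromosome, spanned 444 to 795 CPM across G328V against 0.250 to 1.18 CPM across WT, and the Y-linked gene Ddx3y was the reverse, at most 0.0326 CPM in G328V and at least 17.7 CPM in WT. Genotype and sex-linked expression therefore cannot be told apart in any comparison below. The progenitor genes Sox2 and Vim were present in every library, at 134 to 237 CPM and at 1718 to 3189 CPM. In bulk RNA, fewer cells of a type and less RNA per cell cannot be told apart.

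None of the neuron genes differed between genotypes by more than the spread between cultures. The filter on low counts kept 9 of the 10 genes, all but Rbfox3, and the groups overlapped in each of the 10. By edgeR's quasi-likelihood test with Benjamini-Hochberg adjustment over 14643 genes, 0 of the 9 passed a false discovery rate (FDR) of 0.05 (adjusted p = 0.997 for each), where 0% of all genes passed, and 0 of the 9 had an unadjusted p under 0.05, against 4.06% of all genes. Groups did not overlap in 9.70% of all genes tested. DESeq2 gave no p-value for Map2, Rbfox3, Elavl4, Nefl and Nefm, so it could not call these. Of the other members it called 0, where 1.05% of the genes it adjusted were called. Stmn2 alone was below 0.05 before DESeq2's adjustment, and its adjusted p was 0.584. The limma-voom test called 0 of the 9, with 0 at an unadjusted p under 0.05. Of the 9 log2 differences (G328V minus WT), 3 were positive and 6 negative, where 49.7% of all genes were positive. Their median was -0.56, beside -0.004 over all genes, and it turned to 1.72 when WT replicate 1 was left out. Without G328V replicate 3 the median was 0.10, in a fit whose filter also kept Rbfox3, so over 10 members. The size of the spread is shown by the 95% intervals, which ran from -4.16 to 2.81 for Nefl and from -11.4 to 4.55 for Elavl4. Differences of many fold in either direction thus lie within these intervals, and the test does not show equal expression.

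**Figure D1:**
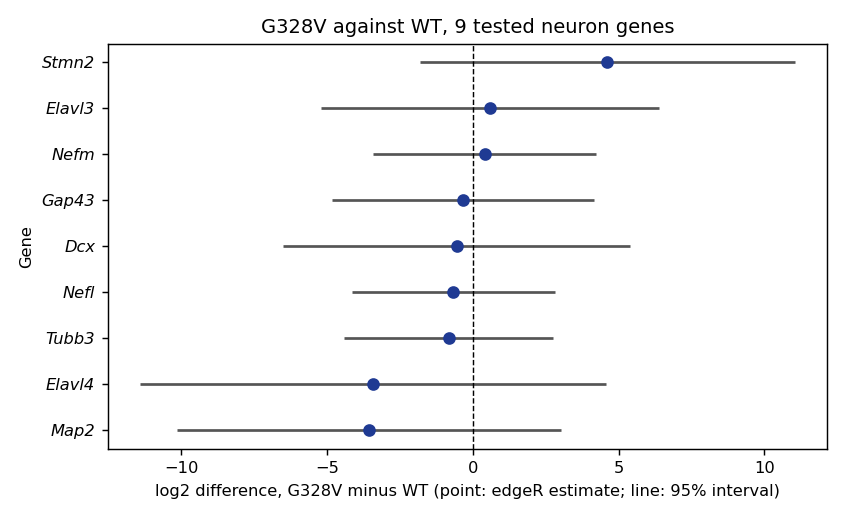
The log2 difference of G328V minus WT (horizontal axis) for the 9 tested neuron genes, with edgeR's estimate as a point and its 95% interval as a line. All 9 intervals cross 0, and Stmn2, at 4.61, and Map2, at -3.56, lie at the ends.

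The DNA just upstream of the start sites is shown for the 5 tested genes with an entry in RefSeq's promoter table (GRCm38.p6), to set side by side the control regions of genes whose levels differed widely between libraries. Entries were found for 6 of the 10 genes. Each line runs 5′ to 3′ on the gene's own strand and ends before the first exon base that RefSeq or GENCODE M21 annotates there, and where a gene has several start sites the outermost one is used. Capitals mark matches on either strand to the GC box GGGCGG, the E-box CANNTG (the element bound by basic helix-loop-helix factors) and the TATA box TATAAA, and no marked match overlaps another. Tubb3 is at chr8:123411303-123411423 (plus strand), Dcx at chrX:143933312-143933469 (minus), Map2 at chr1:66175079-66175272 (plus), Elavl3 at chr9:22052024-22052273 (minus) and Elavl4 at chr4:110351912-110352161 (minus).
Tubb3: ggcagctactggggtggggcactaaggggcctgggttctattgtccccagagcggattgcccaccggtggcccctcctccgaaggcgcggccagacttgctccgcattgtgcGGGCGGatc
Dcx: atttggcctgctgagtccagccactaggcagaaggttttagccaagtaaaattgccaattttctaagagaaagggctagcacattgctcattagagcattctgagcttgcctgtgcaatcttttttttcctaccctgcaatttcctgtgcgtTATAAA
Map2: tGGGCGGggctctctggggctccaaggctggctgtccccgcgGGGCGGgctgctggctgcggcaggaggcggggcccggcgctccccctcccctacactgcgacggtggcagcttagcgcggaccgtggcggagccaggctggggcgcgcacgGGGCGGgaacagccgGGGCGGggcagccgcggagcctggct
Elavl3: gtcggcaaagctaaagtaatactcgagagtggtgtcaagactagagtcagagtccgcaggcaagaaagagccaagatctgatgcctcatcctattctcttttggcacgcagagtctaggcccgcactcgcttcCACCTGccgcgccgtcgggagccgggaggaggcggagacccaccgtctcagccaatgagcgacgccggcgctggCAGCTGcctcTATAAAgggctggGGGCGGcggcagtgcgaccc
Elavl4: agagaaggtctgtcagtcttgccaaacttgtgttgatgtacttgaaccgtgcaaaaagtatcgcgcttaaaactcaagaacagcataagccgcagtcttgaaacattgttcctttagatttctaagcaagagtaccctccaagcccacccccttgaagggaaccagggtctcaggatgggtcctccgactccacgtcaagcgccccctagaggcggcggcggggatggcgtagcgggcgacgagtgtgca
In the full 300-base windows, which reach 50 bases past the start site, Map2 had 5 GC boxes and a GC content of 77.7%, against a median of 52.7% over 32851 promoter windows. Dcx, at 43%, had no GC box, no E-box and 1 TATA box. Elavl3 had 2 E-boxes, 2 GC boxes and 1 TATA box, while the outermost window of its paralog Elavl4 had none of the 3 motifs. The windows of the other 3 Elavl4 start sites held 4, 4 and 1 E-boxes. The 2 windows with 4, at chr4:110287478-110287777 and chr4:110287462-110287761, share most of their bases and are not separate regions. Of all windows, 72.3% held an E-box, 35.7% a GC box and 13.6% a TATA box. These matches describe letters in these windows and not binding.

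In GENCODE M21 (GRCm38), Tubb3 spans 123411424 to 123422015 of chromosome 8 (plus strand), Map2 66175273 to 66442583 of chromosome 1 (plus) and Dcx 143855842 to 143933311 of chromosome X (minus). Among these microtubule genes, Tubb3 stood at 17.9, 8.46 and 1.26 CPM across G328V (replicates 1, 2 and 3, the order used throughout), against 44.6, 2.89 and 1.43 CPM across WT (replicates 1, 3 and 70A). Replicate 1 was the highest library in each genotype, and the other libraries of both genotypes were mixed in order. The G328V mean was 9.22 ± 8.37 CPM (SD, n = 3), the WT mean was 16.3 ± 24.5 CPM (SD, n = 3), and the log2 difference was -0.82 (standard error, SE, 1.48). Dcx, the doublecortin of migrating neurons, lies on the X chromosome. It stood at 3.72, 1.38 and 0 CPM across G328V, against 6.08, 0.00568 and 1.43 CPM across WT. Thus 1 library of each genotype was at or near 0, with 0 counts in G328V replicate 3 and 1 count in WT replicate 3. Its log2 difference was -0.56 (SE 2.45).

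Map2 had the widest range of the 9 tested genes. It stood at 7.98, 24.1 and 0.691 CPM across G328V, against 380, 0.00568 and 6.44 CPM across WT. WT replicate 1 held 46797 counts and WT replicate 3 held 1, although the latter was the most deeply sequenced library, and WT replicate 1 alone made up 90.7% of the summed CPM of the 6 libraries. The log2 difference was -3.56 (SE 2.71). Without WT replicate 1 the log2 differences of Map2, Tubb3 and Dcx turned positive, to 1.72, 2.08 and 1.22, and none passed edgeR's test (adjusted p = 0.927, 0.780 and 0.967). That of Dcx was also 0.026 without G328V replicate 3.

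The growth cone genes were high in different libraries. Stmn2 spans 8509360 to 8561606 of chromosome 3 (plus strand) and Gap43 42248442 to 42340651 of chromosome 16 (minus). Stmn2, a phosphoprotein that binds free tubulin, stood at 0.670, 0.00831 and 8.31 CPM across G328V, against 0.276, 0 and 0.0919 CPM across WT. G328V replicate 3, where Tubb3, Dcx, Map2 and Elavl4 were at or below 1.26 CPM, held 88.8% of its summed CPM. The log2 difference, 4.61 (SE 2.65), was the largest positive estimate of the 9 but did not pass the test, and without G328V replicate 3 it was 1.47. Gap43, a membrane-bound protein of growing axons, stood at 19.1, 0.166 and 1.10 CPM across G328V, against 19.6, 0.358 and 5.62 CPM across WT. Replicate 1 of the 2 genotypes had nearly the same level, while G328V replicate 2 and WT replicate 3 were the lowest. The log2 difference of Gap43 was -0.33 (SE 1.85), and it turned to 0.25, 0.18 and 1.18 without G328V replicate 2, G328V replicate 3 and WT replicate 1. Without G328V replicate 1 it was -3.75.

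The RNA-binding genes lie on the minus strand, Elavl3 at 22015005 to 22052023 of chromosome 9, Elavl4 at 110203722 to 110351909 of chromosome 4 and Rbfox3 at 118489762 to 118911597 of chromosome 11. Elavl3 stood at 2.38, 1.26 and 0.381 CPM across G328V, against 2.67, 0 and 0.00575 CPM across WT. All 3 G328V libraries held at least 70 counts, while WT held 329 counts in replicate 1 and 0 and 1 in the others. The log2 difference was 0.59 (SE 2.39). Without WT replicate 1 it was 8.52, against WT libraries with 0 and 1 counts, and is no measured size (edgeR adjusted p = 0.647), and without G328V replicate 1 it was -0.119. Elavl4, its paralog, stood at 3.75, 0.0166 and 0.00544 CPM across G328V, against 40.1, 0 and 0.356 CPM across WT. Outside replicate 1 of each genotype, Elavl4 had at most 62 counts, and WT replicate 1 alone made up 90.7% of the summed CPM. Its log2 difference was -3.42 (SE 3.28), and 2.80 without WT replicate 1. Without G328V replicate 1 the log2 difference of Elavl4 was -10.2, against G328V libraries with 2 and 1 counts. Rbfox3, which encodes the NeuN antigen of mature neurons, had 141 counts in G328V replicate 2, 100 in WT replicate 1 and 0 in each of the other 4 libraries. It was not tested. At most 1.17 CPM, it was the lowest of the 10 genes in its highest library.

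The neurofilament genes followed another order of libraries. Nefl, the light subunit, stood at 220, 8.53 and 8.20 CPM across G328V, against 51.1, 274 and 52.8 CPM across WT. WT replicate 3, at or near 0 for 6 of the other genes, was thus the highest for Nefl, which made up 90.3% of the summed CPM of all 10 genes there. Nefm, the medium subunit, stood at 114.6, 0.548 and 4.93 CPM across G328V, against 36.8, 26.0 and 28.0 CPM across WT. For both subunits G328V replicates 2 and 3 lay below every WT library. G328V replicate 1 was above every WT library for Nefm and above WT replicates 1 and 70A for Nefl. The log2 differences were -0.68 for Nefl and 0.40 for Nefm, with SEs of 1.43 and 1.57. When G328V replicate 1 was left out they were -3.91 and -3.47, with unadjusted p-values of 0.0111 and 0.0197, and did not pass edgeR's FDR (adjusted p = 0.999 for each). In that comparison 3.01% of all genes had an unadjusted p under 0.05, and groups did not overlap for 16.8%, with G328V lower for 7.90%. Without WT replicate 3 the log2 difference of Nefl was 0.60.

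The counts of Nefm are less certain than the others. In GENCODE M21 (GRCm38) Nefl lies on chromosome 14 from 68083863 to 68089095 on the plus strand. Nefm spans 68082590 to 68124846 on the minus strand and shares 1108 exon bases with Nefl, so that reads from those bases cannot be told apart without strand. Whether the deposited counts used strand or this annotation is not stated in the sources used here. A second deposited table, of fragments estimated by Cufflinks, gave 1.73 to 1.97 counts per fragment for the other 9 genes. Over the 8924 genes that had 500 counts or more in all 6 libraries, the median was 1.96 and the 5th percentile 1.84. Rbfox3, at 1.73, and Gap43, at 1.805, lay below that percentile. Nefm had 3.88 counts per fragment, higher than 99.91% of the 8924 genes. By fragments Nefm was at 5304, 2 and 197 in G328V and at 1303, 1063 and 1052 in WT, in the same order of groups and replicates as above, so G328V replicates 2 and 3 were also the lowest there. The ratio of Nefl to Nefm depended on the table. In CPM it was 1.39 to 1.92 in 4 libraries, 15.6 in G328V replicate 2 and 10.5 in WT replicate 3. By fragments it was 2.52 to 4.53 in the same 4 libraries and 23.4 in WT replicate 3, and G328V replicate 2 held 534 Nefl fragments and 2 of Nefm.

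**Figure D2:**
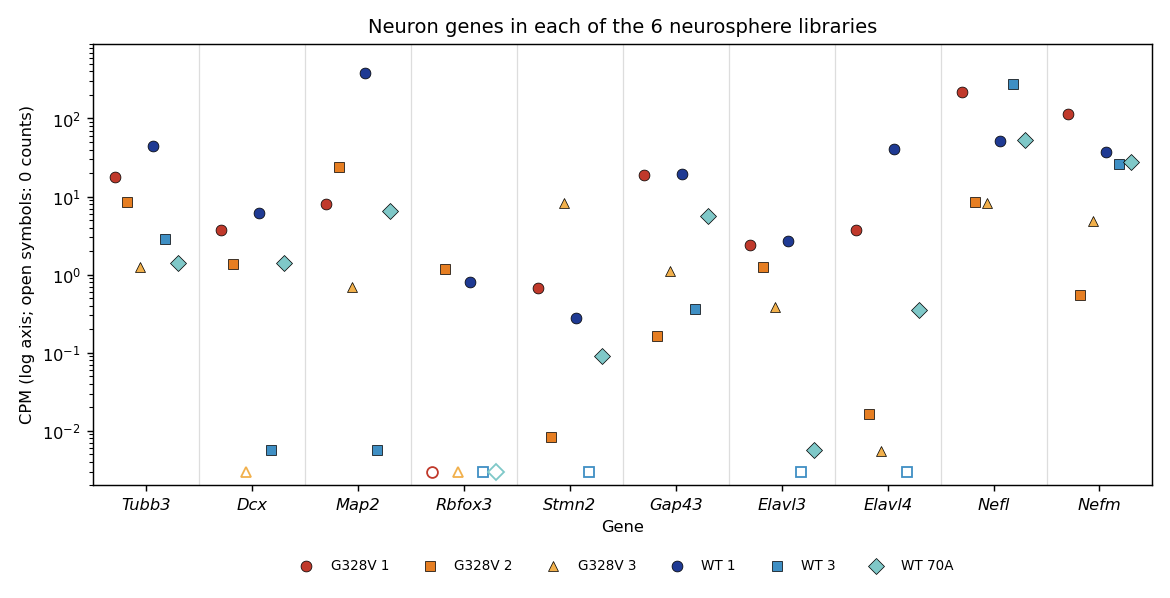
CPM of each of the 10 neuron genes (log axis) in the 6 libraries, with G328V in red to yellow, WT in blue to green and open symbols at the bottom for 0 counts. The 2 genotypes interleave in every gene, and single libraries stand far above the rest for Map2 and Elavl4 (WT replicate 1) and Stmn2 (G328V replicate 3).

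Across the set, libraries of the same genotype differed widely. WT replicate 1 was the highest library for 6 of the 9 tested genes, and G328V replicate 1 was among the highest 2 libraries for 8. In both of these libraries all 9 genes lay above their own mean on the log2 scale. The mean level of the 9 genes, as log2 CPM minus each gene's mean, was 3.19 in WT replicate 1 and 2.495 in G328V replicate 1. It was -0.20 in WT replicate 70A, -1.17 in G328V replicate 2, -1.46 in G328V replicate 3 and -2.85 in WT replicate 3. In WT replicate 3 a total of 6 of the 10 genes had at most 3 counts, against 0 of 10 in WT replicate 1. The groups therefore overlapped in this level too, with WT holding both its highest and its lowest value.

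**Figure D3:**
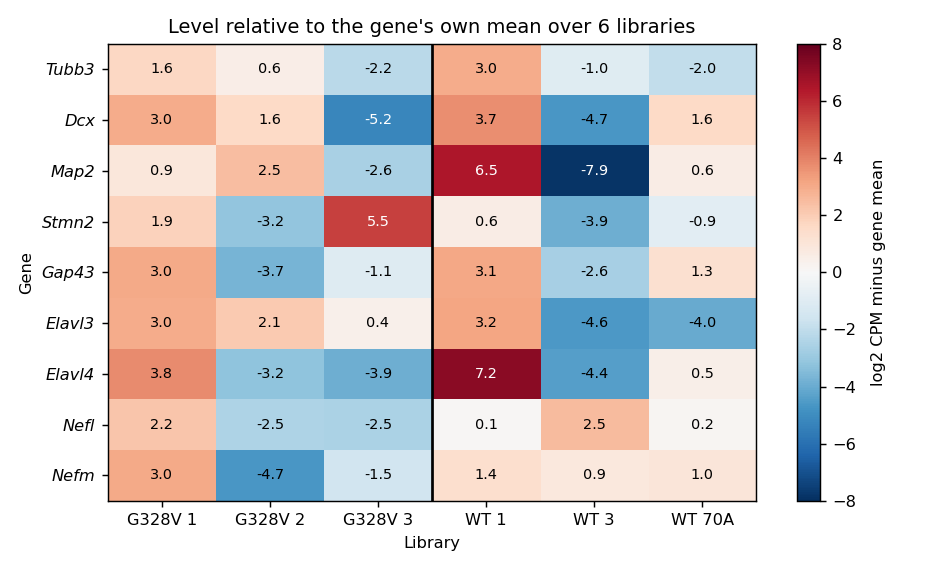
Level of each tested neuron gene in each library as log2 CPM minus the gene's mean over the 6 libraries (red above, blue below, line between genotypes). WT replicate 1 and G328V replicate 1 are above 0 for all 9 genes. In WT replicate 3 only Nefl and Nefm are above 0, and Stmn2 has its highest value in G328V replicate 3.

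Members did not all vary together. The closest pair of profiles was Nefl and Nefm, whose centred log2 CPM values differed by a root mean square of 1.38, followed by Gap43 and Nefm at 1.66 and Tubb3 and Elavl3 at 2.15. Nefl and Nefm share exon bases and the counts of Nefm are uncertain, and the part of shared reads in the likeness of the pairs that hold Nefm was not tested. The most distant pair was Map2 and Nefl, at 5.404. The paralogs Elavl3 and Elavl4 differed by 3.73. As 36 pairs share the same 6 libraries, these values are descriptions.

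The spread within a genotype was large for these genes. The pooled SD of log2 CPM within groups ran from 2.16 for Nefl and 2.32 for Tubb3 to 5.11 for Elavl4 and 5.42 for Map2. The median over all tested genes was 0.667. The members lay between the 81.8th percentile, for Nefl, and the 99.7th, for Map2. Nefl had at least 1027 counts in every library and Tubb3 at least 231, while 5 of the other tested genes had a library with at most 1 count.

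**Figure D4:**
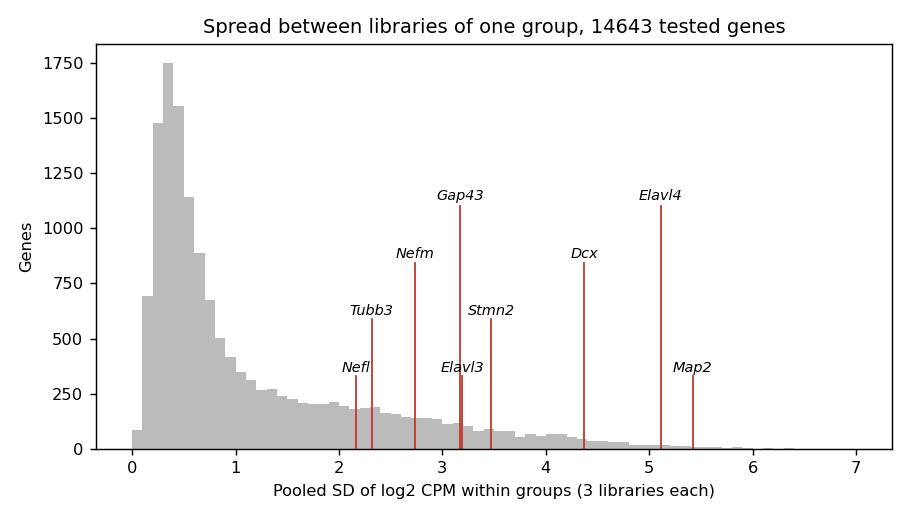
Histogram of the pooled SD of log2 CPM within groups (horizontal axis) over all tested genes (vertical axis, number of genes), with the 9 tested neuron genes marked by red lines whose height carries no value. All 9 lie to the right of the bulk of genes, from 2.16 for Nefl to 5.42 for Map2.

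Levels between genes were compared per kilobase of annotated exon. Averaged over the 6 libraries, Nefl was highest at 30.3 CPM per kb, the 88.6th percentile of the 13233 tested genes with a length. Tubb3, Nefm, Gap43 and Map2 followed at 6.84, 6.08, 5.03 and 4.25 CPM per kb, around the median of 5.21. Elavl4 was at 1.37 and Stmn2 at 0.278 CPM per kb. Dcx and Elavl3, at 0.166 and 0.162, lay near the 10th percentile, and Rbfox3 was at 0.0568. The order changed with the library. Tubb3 and Map2, at 23.9 and 23.1 CPM per kb, were the highest members in WT replicate 1. In WT replicate 3 Nefl stood at 81.0 and every other member at 4.50 CPM per kb or less.

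Of the related neuronal genes, 0 in any list passed edgeR's FDR. Of 23 tested microtubule, filament and growth cone genes beside the members, 7 had positive and 16 negative log2 differences (median -0.31), and 15 were highest in WT replicate 1. Tubb2b, a tubulin of young neurons, stood at 45.6, 63.2 and 17.4 CPM across G328V, against 302, 40.6 and 23.1 CPM across WT, again with WT replicate 1 apart. Dpysl3, a collapsin response mediator protein, had a log2 difference of 1.42 (SE 0.61, unadjusted p = 0.0578). Stmn4, a stathmin, was the only gene of this list whose groups did not overlap, while 5.25% of all genes did so with G328V higher. It was low, between 0.166 and 0.898 CPM across G328V and at most 0.0975 CPM across WT. Of 14 tested synapse genes 8 were positive (median 0.36). Among them Syn1, a synaptic vesicle protein, reached 49.7 CPM in WT replicate 1, against 2.71 to 13.0 CPM in the other libraries. The vesicle protein Syp had a log2 difference of 1.17 (SE 1.21), and Cplx2, a complexin of synaptic release, had -1.31 (SE 0.84).

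Of 11 tested RNA-binding and splicing genes beside the members, 5 were positive and 6 negative (median -0.07). Celf4, an RNA-binding protein enriched in neurons, stood at 32.5, 24.2 and 32.1 CPM across G328V, against 84.7, 58.5 and 53.7 CPM across WT. Every G328V library was thus below every WT library, as in 4.45% of all genes. The log2 difference of Celf4 was -1.15 (SE 0.29). Its unadjusted edgeR p of 0.00693 was the only one of the list under 0.05, where 2.17% of all genes were under it with G328V lower. Celf4 passed neither edgeR's nor DESeq2's adjustment (adjusted p = 0.997 and 0.0788). Nova1, a splicing factor, reached 36.5 CPM in WT replicate 1, against 0.357 to 4.30 CPM in the other libraries. Ptbp2, a splicing repressor of immature neurons, had a log2 difference of 0.73 (SE 0.43).

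Among neurogenic transcription factors and the repressor Rest, 11 were tested, with 2 positive and 9 negative differences (median -0.56). Sox4, a factor of newly born neurons, stood at 132, 132 and 122 CPM across G328V, against 305, 211 and 271 CPM across WT, so that its groups did not overlap, with G328V lower, as in 4.45% of all genes. Its log2 difference was -1.03 (SE 0.23). Sox4 did not pass edgeR's FDR (adjusted p = 0.997, unadjusted p = 0.00364), while DESeq2 called it lower over all genes, with an adjusted p of 0.0221. Hes6, a factor that promotes neuronal differentiation, had a log2 difference of -0.57 (SE 0.49).

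Markers of other cell types also varied between cultures, beside the neuron genes, and their part in the member levels was not tested. In WT replicate 1, the highest library for the neuron genes, oligodendrocyte lineage markers and neural stem markers were also highest, at 2.59 and 1.88 on the same log2 scale, over 7 and 9 tested genes. Olig2, a lineage factor, reached 416 CPM there, against 0.938 CPM or less in the other libraries, and Olig1 reached 615 CPM against 1.07 CPM or less. Fabp7, a radial glia lipid-binding protein, reached 1313 CPM there, against 65.1 CPM or less in the other libraries. Tnc, a matrix protein of the stem cell niche, was at 4056 CPM there and at 887.5 CPM in WT replicate 70A. Of the 9 tested neural stem markers, 4 were highest in WT replicate 1. Prom1 was instead higher in every G328V library, at 133 to 288 CPM, than in any WT library, at 68.8 CPM or less. So were 5.25% of all genes, and Prom1 did not pass edgeR's FDR. In G328V replicate 1, the second library for the neuron genes, astrocyte markers and neural crest and Schwann markers were highest, at 2.82 and 3.49 over 10 and 8 tested genes. Gfap, the astrocyte filament, reached 10.1 CPM there, against 0.299 CPM or less in the other libraries. The neuregulin receptor Erbb3, at 25.5 CPM, and the neural crest factor Tfap2b, at 190 CPM, were also highest in G328V replicate 1. Of the tested markers, positive log2 differences were found in 6 of 10 for astrocytes, 4 of 7 for the oligodendrocyte lineage, 3 of 9 for neural stem cells and 7 of 8 for neural crest and Schwann cells, with medians of 1.24, 1.14, -0.09 and 1.52. DESeq2 called Apoe, a lipid carrier of astrocytes, and Tfap2b higher in G328V (adjusted p = 0.0382 and 2.33e-04), and edgeR called neither. The groups overlapped in both genes. Apoe stood at 53.45, 32.5 and 1.245 CPM across G328V, against 0.886, 0.813 and 2.95 CPM across WT. Tfap2b stood at 190, 30.0 and 0.02175 CPM across G328V, against 0.26 CPM or less across WT. G328V replicate 3 thus lay among the WT libraries for both.

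Summed over each marker list, astrocyte markers spanned 340 to 1847 CPM across G328V against 237 to 507 CPM across WT. Oligodendrocyte lineage markers spanned 21.7 to 255 and 69.3 to 1095 CPM in the same order, neural stem markers 2474 to 3817 and 2393 to 9384 CPM, and neural crest and Schwann markers 95.3 to 1060 and 59.7 to 492 CPM, so the groups overlapped in each. Peripheral neuron and neuroendocrine markers summed to 18.3 to 24.6 CPM across G328V and 1.5 to 39.8 CPM across WT, with Phox2a and Dbh below 0.1 CPM in every library. Their mean log2 level was lowest in WT replicate 3, at -3.27. Pou4f1 and Pou4f2, factors of sensory and retinal neurons, were higher in every G328V library than in any WT library, as were 5.25% of all genes. Pou4f1 spanned 0.870 to 5.07 CPM across G328V with 0.699 CPM or less across WT, and Pou4f2 spanned 0.527 to 8.12 CPM with 0.0975 CPM or less. Neither passed edgeR's FDR (adjusted p = 0.997 for each), and their unadjusted p-values were 0.0782 and 0.0426, where 1.88% of all genes were under 0.05 with G328V higher. Hand2, a sympathetic lineage factor, reached 6.36 CPM in G328V replicate 3, the library with the most Stmn2, against 0.309 CPM or less in the other libraries.

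Several sums rested on single genes. Of the 1847 CPM of astrocyte markers in G328V replicate 2, the matrix protein gene Sparcl1 gave 1666 CPM, while Gfap and Aqp4 stood at 0.299 and 0 CPM there. Mitf, a factor of pigment and neural crest cells, gave 634 of the 1060 CPM of neural crest and Schwann markers in G328V replicate 1.

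Among non-neural lists, microglia and blood cell markers spanned 24.6 to 64.7 CPM across G328V against 2.18 to 82.0 CPM across WT in sum. Most of each sum was Cd68, a lysosomal protein gene, at 1.75 to 80.0 CPM. Of the other markers in this list, Cx3cr1 and Ptprc were at most 0.227 and 0.506 CPM in any library. Tmem119 reached 3.77 CPM in G328V replicate 2 and 3.49 CPM in WT replicate 70A, and Csf1r reached 1.70 CPM in G328V replicate 1. Endothelial markers summed to 36.8 to 97.2 and 7.72 to 66.6 CPM, and fibroblast and pericyte markers to 61.0 to 300 and 8.24 to 506 CPM. Of the highest fibroblast and pericyte sums, Rgs5, a pericyte gene, gave 299 CPM in G328V replicate 3 and Col3a1, a collagen, gave 455 CPM in WT replicate 70A. All 3 lists had their lowest sum in WT replicate 1, where most neuron genes were highest. Proliferation genes varied little, with list levels from -0.31 in WT replicate 1 to 0.22 in G328V replicate 2, and all 10 had positive log2 differences with a median of 0.31, where 49.7% of all genes were positive. None of the 10 passed edgeR's FDR. Mcm2, a replication helicase subunit, and Bub1, a spindle checkpoint kinase, did not overlap between groups, with G328V higher, as in 5.25% of all genes, and had log2 differences of 0.56 and 0.48.

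**Figure D5:**
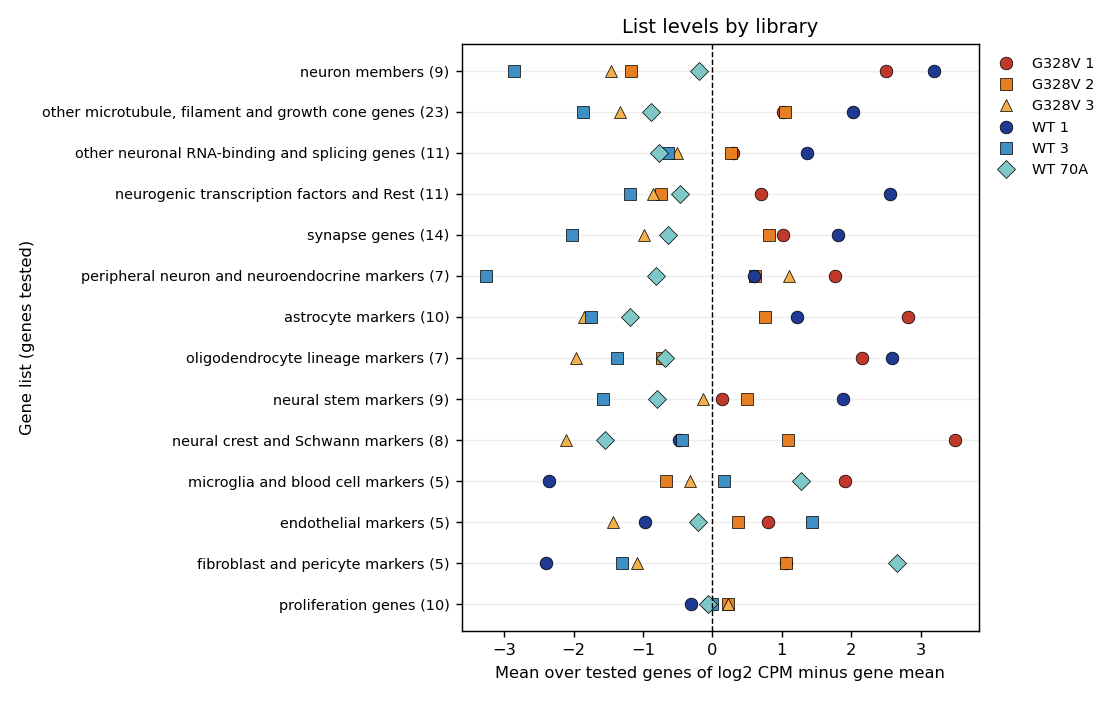
Mean log2 CPM relative to each gene's mean (horizontal axis) for the neuron genes, listed as neuron members, and 13 other lists in the 6 libraries, with the number of tested genes in brackets. WT replicate 1 is highest for the neuron genes and the first 4 related lists, and G328V replicate 1 for astrocyte and neural crest markers, while proliferation genes lie between -0.31 and 0.22.

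The 6 genes whose pattern over the libraries was most like the mean of the 9 neuron genes were Srl, Abat, Klhl13, Mest, Sorbs2 and Cdon. Likeness was the root mean square difference between centred log2 CPM profiles over the 6 libraries, among 9382 genes with a mean of at least 10 CPM. It was 0.59 for Srl and 0.85 for Cdon, beside a median of 2.25 over those genes. Abat, which encodes the enzyme that degrades the transmitter GABA, stood at 41.1, 5.08 and 1.15 CPM across G328V, against 54.5, 0.443 and 5.58 CPM across WT. Mest, an imprinted gene, stood at 103, 22.5 and 19.3 CPM across G328V, against 283, 10.1 and 50.7 CPM across WT. Like the mean of the neuron genes, both were highest in replicate 1 of the 2 genotypes and lowest in WT replicate 3. As both were chosen for their likeness to that mean, this shared order is no separate finding. The groups overlapped in both genes.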

How the data were processed

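RNA-seq of 6 neurosphere libraries was analysed from the 2 deposited tables. The build mm10 and the tools Bowtie2 2.2.1, TopHat2 2.0.13 and FastQC 0.11.3 are listed per the submitters' processing notes. The sources used here state neither their roles nor the counting settings or annotation. The authors deposited whole-number counts per gene symbol (HTSeq, 17551 genes) and estimated counts of fragments (Cufflinks), neither normalized. The labels' protocols give ribosomal depletion and a stranded kit, but whether the counting used strand is not stated. Symbols missing from the tables were matched through RefSeq synonyms (4 genes of the lists, Map2 among them).

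The main test was edgeR 4.0.16 in R 4.3.3 (quasi-likelihood F-test, legacy robust fit, TMM, filterByExpr with a minimum count of 10, 2 groups of 3, no covariate) with Benjamini-Hochberg adjustment over 14643 genes. Standard errors and 95% intervals were derived from the F statistic. Log2 CPM used a prior count of 2. Depth was 115953495 to 191115532 counts. A floor of 3 counts covers only counting error. It takes counts as separate reads, while the median was 1.96 counts per fragment, so the floor may be too low. Alternatives were DESeq2 1.42.0, limma 3.58.1 (voom), other scalings and filters, estimated counts rounded to whole numbers, a replicate block and leaving out each library. DESeq2 gave no p-value for Map2, Elavl4, Nefl, Nefm and Rbfox3. The series calls the replicates biological but names no animals or cultures, so a p-value here reflects the spread between these 6 samples, which may in part be technical. Every pair of libraries differed far beyond sampling noise.

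The 10 genes and the 13 other lists were chosen with earlier results of these data known. Named were all 10 members, up to 3 tested genes per list with the smallest p, and the 6 genes with the most similar profile. A few genes that this rule names were left out and are not reported here.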

Additional observations from a re-analysis of the deposited data

How the results depend on the processing

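Of the members tested in each of 17 alternatives, 0 passed the FDR. The filter of at least 1 CPM in 3 libraries tested 7 of them, and DESeq2 gave no p-value for Map2, Rbfox3, Elavl4, Nefl and Nefm. Over all genes, edgeR and limma called 0 in 16 alternatives and DESeq2 called 173 genes. The median log2 difference of the tested members, -0.56, was -0.69 to -0.44 under the alternatives with other tests, scalings, filters, tables and pairings. It ran from -2.62 without G328V replicate 1 to 1.72 without WT replicate 1. The members tested changed with the filter, and the fit without G328V replicate 1 tested 10, Rbfox3 among them. With limma-voom the signs of Tubb3 (0.19), Map2 (1.27) and Nefm (-1.80) turned. The numbers 1 and 3 are shared by both genotypes but nothing in the labels pairs them, and a fit with the replicate block on those 4 libraries called 0 genes (621 genes had an unadjusted p under 0.05, against 552 without the block). There Gap43 turned to 0.79 and Nefm to -0.38 with the block, and Gap43 to 0.022 without it. Same-numbered libraries had correlations of deviations of 0.181 and 0.226 across genes, which is not enough to pair them. Leaving out 1 library at a time gave -1.75 to 2.08 for Tubb3, -1.86 to 1.22 for Dcx, -4.90 to 1.72 for Map2, -3.75 to 1.18 for Gap43, -0.119 to 8.52 for Elavl3, -10.2 to 2.80 for Elavl4, -3.91 to 0.60 for Nefl and -3.47 to 0.98 for Nefm. The cause of these turns was not tested beyond the libraries named. Stmn2 stayed positive under every alternative that tested it, from 1.47 to 5.99. Counting error is largest for Rbfox3 and for the libraries with a few counts of a gene, and the part of depth in the spread was not tested.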

Other observations

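Partners of the neuron genes that the naming rule did not reach are given here, chosen after their values were seen. Ina, the filament protein alpha-internexin of young neurons, reached 17.0 CPM in WT replicate 1 against 0.793 CPM or less in the other libraries, with 0 counts in G328V replicate 3 and WT replicate 3. Nefh, the heavy neurofilament subunit, was low, at most 0.266 CPM in any library. It had 0 counts in WT replicate 70A and in WT replicate 3, where Nefl reached 274 CPM. Elavl2, a paralog of Elavl3 and Elavl4, stood at 15.8, 0.748 and 0 CPM across G328V, against 42.7, 0 and 1.72 CPM across WT. The ubiquitous paralog Elavl1 lay at 222 to 400 CPM in every library. Insm1, a factor of neuronal and endocrine progenitors, reached 29.5 CPM in WT replicate 1 and 11.3 CPM in G328V replicate 3, the library with the most Stmn2, against at most 2.05 CPM in the others. Sox11, a factor of immature neurons, stood at 240, 163 and 2.71 CPM across G328V, against 519, 5.20 and 71.1 CPM across WT. None of these 6 genes passed edgeR's FDR, and their groups overlapped.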
